A study of Drosophila melanogaster with 2 samples.

Results

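The 8 tubulin genes examined here are the alpha-tubulin genes alphaTub84B, alphaTub84D, alphaTub85E and alphaTub67C and the beta-tubulin genes betaTub56D, betaTub60D, betaTub85D and betaTub97EF of Drosophila melanogaster. They were taken by name from 13968 protein-coding genes on the chromosome arms and have 9 annotated transcription start sites (TSSs). Binding of the protein CG13287 was mapped by chromatin immunoprecipitation and sequencing (ChIP-seq) in whole embryos aged 6 to 24 hours, from a transgenic strain that carries CG13287 fused to the green fluorescent protein eGFP, pulled down with an antibody against GFP. Chromatin was sheared by sonication to 200 to 800 bp. There was 1 group of 2 biological replicates, and no other genotype, stage or treatment was analysed here. The labels do not name the promoter that drives the fusion. Whole embryos mix all tissues, so strong binding in few cells and weak binding in many cannot be told apart, and no RNA was measured.

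Alpha- and beta-tubulin pair into the dimers from which microtubules are built, the tracks and spindle fibres of the cell. In the fly, alphaTub84B, alphaTub84D and betaTub56D are known as the broadly expressed paralogs. Among those with narrower somatic use, alphaTub85E and betaTub60D are known from chordotonal sense organs and developing muscle, and betaTub97EF from gut and blood cells. The germline paralogs are alphaTub67C, which the mother loads into the egg, and betaTub85D, which builds the microtubules of the testis. These groups come from general knowledge and not from the data.

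Within 500 bp of a TSS, peaks that passed the authors' filter stood at 2 of the 8 genes in the conservative list of both replicates, alphaTub84B and betaTub56D, both broadly expressed paralogs. The background in that list was 39.8% of all protein-coding genes. The third broadly expressed gene, alphaTub84D, and all 3 genes of narrower somatic use had entries in the lists before the filter but none in that list. The germline genes alphaTub67C and betaTub85D had no entry within 500 bp in any of the 8 lists.

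Promoter sequence is shown for 4 genes that stand for these outcomes: the alpha-tubulin pair that differed at the filter (alphaTub84B and alphaTub84D), a beta-tubulin gene that passed it in replicate 2 alone (betaTub97EF) and the maternal gene with no entry (alphaTub67C). Each runs 5′ to 3′ over 280 bases, from 250 bases before the TSS to the first 30 transcribed bases, read from the Release 6 genome, whose coordinates are those of dm6. The windows are chr3R:7086349-7086628 on the plus strand, chr3R:7530503-7530782 on the plus strand, chr3R:27988355-27988634 on the minus strand and chr3L:9681018-9681297 on the plus strand. Capitals mark exact matches, on either strand, to the motifs searched, which are listed with their results further on.
alphaTub84B: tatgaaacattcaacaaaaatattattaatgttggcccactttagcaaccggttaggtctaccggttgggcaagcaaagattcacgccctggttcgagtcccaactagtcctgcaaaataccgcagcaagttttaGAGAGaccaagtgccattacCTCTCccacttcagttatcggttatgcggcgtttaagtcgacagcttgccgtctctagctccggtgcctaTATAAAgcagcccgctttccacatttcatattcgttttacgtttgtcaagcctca
alphaTub84D: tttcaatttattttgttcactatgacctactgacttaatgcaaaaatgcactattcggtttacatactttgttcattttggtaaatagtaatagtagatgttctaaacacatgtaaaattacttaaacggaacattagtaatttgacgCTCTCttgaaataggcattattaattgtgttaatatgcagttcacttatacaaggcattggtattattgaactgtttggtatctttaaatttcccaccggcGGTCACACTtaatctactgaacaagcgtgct
betaTub97EF: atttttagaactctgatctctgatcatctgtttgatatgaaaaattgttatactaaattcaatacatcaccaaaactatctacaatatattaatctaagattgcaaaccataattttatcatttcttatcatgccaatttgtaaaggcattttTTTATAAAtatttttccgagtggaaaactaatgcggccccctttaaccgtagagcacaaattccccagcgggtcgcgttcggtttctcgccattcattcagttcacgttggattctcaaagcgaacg
alphaTub67C: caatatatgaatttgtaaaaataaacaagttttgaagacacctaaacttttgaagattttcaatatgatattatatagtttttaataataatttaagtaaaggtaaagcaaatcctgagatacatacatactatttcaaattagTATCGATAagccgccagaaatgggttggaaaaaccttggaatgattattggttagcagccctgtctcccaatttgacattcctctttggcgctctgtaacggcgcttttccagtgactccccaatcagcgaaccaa

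The capitals show GAGAG and a TATAAA element in alphaTub84B, GAGAG and GGTCACACT in alphaTub84D, overlapping TATAAA matches of both strands in betaTub97EF and TATCGATA in alphaTub67C. In alphaTub84B the TATAAA match begins 25 bases before the TSS. In alphaTub67C the TATCGATA match begins 106 bases before it.

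Each deposited list gives an interval, a summit, a signal value and a score for every peak. The global irreproducible discovery rate (IDR) of a peak estimates the share of peaks that are not repeatable among those ranked at least as high. Every filtered list begins at a score of 830, which is an IDR of 0.01. The filtered lists held 5955 peaks on the arms (conservative), 7026 (optimal), 3997 (replicate 1) and 7340 (replicate 2), with median signals of 178, 155, 106 and 99.8. The ranked lists, from before the filter, held 24422 to 36753 peaks on the arms. The conservative and optimal lists give a shared peak the same signal, so they are not independent measurements. Read depth is unknown, since the lists hold no counts. With 2 replicates of 1 group no test between groups was possible, and differences are given as values with both replicates beside them.

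Across the other lists the count of tubulin genes with a peak moved with the list. In the optimal list it was again 2 of 8, against 43.7% of all protein-coding genes. Replicate 1 alone gave 1 of 8, alphaTub84B, against 30.3%. Replicate 2 alone gave 3 of 8, betaTub97EF being the addition, against 44.9%. Before the filter, the conservative ranked list gave 6 of 8 against 60.7%, the optimal ranked list 6 of 8 against 62.8%, replicate 1 gave 5 of 8 against 58.0% and replicate 2 gave 6 of 8 against 66.1%. Among all genes 4143 had a filtered peak in both replicates, 96 in replicate 1 only and 2123 in replicate 2 only.

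**Figure D1:**
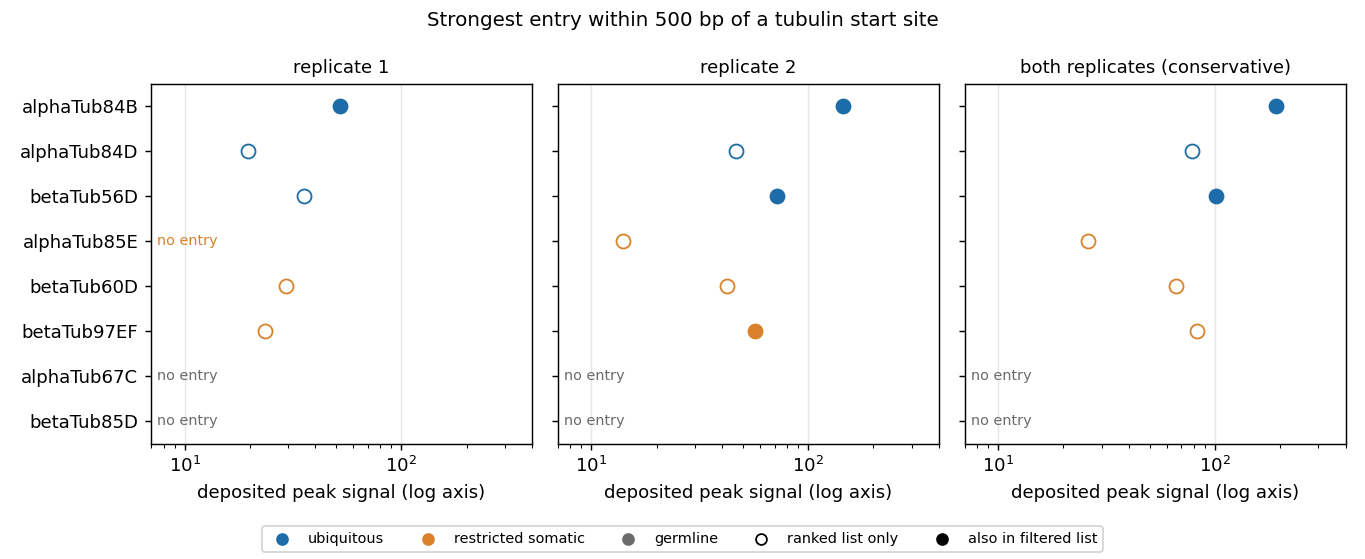
Strongest deposited signal within 500 bp of a TSS for each tubulin gene (log axis), in replicate 1, replicate 2 and both replicates together. Filled points also passed the filter, open points stand in the ranked list only, and colours give the paralog group. alphaTub84B was highest in all 3 panels (52.1, 145 and 192), and both germline genes had no entry.

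alphaTub84B, the main alpha-tubulin gene of most fly cells (FBgn0003884, chr3R:7086599-7088839, plus strand), was the one paralog with a filtered peak in both replicates. Its signal was 52.1 in replicate 1, 145 in replicate 2 and 192 in the conservative list. The value was higher in replicate 2 than in replicate 1, as it was at most genes. The scale of these values is not given. In replicate 1 the peak ranked 3420 of 3997, with 14.4% of peaks lower, and its score of 836 lay just inside the filter (IDR 0.00965). In replicate 2 it ranked 2328 of 7340, with 68.3% of peaks lower and an IDR of 0.000243. These filtered lists differ in length, and in the ranked lists of the replicates the shares of lower peaks lay closer together, at 83.7% and 93.5%. In the conservative list it ranked 2776 of 5955 with a score of 1000. Read against genes instead of peaks, 37.0% of the 5565 genes with a conservative peak had a lower signal than alphaTub84B, whose 192 lay between the first quartile (153) and the median (255).

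The alphaTub84B summit lay 31 bp downstream of the TSS in the conservative list, 36 bp in replicate 1 and 11 bp in replicate 2, in the 5′ untranslated region each time. The conservative peak was narrow, 195 bp at chr3R:7086519-7086713. A weaker entry stood in the first intron before the filter, 234 bp downstream with a signal of 48.6 (IDR 0.0577). Another peak 936 bp upstream, with a signal of 98.4 in the optimal list and 70.9 in replicate 2, lay beside the start sites of Tailor, on the opposite strand, and of the antisense RNA gene asRNA:CR45907. Tailor encodes an enzyme that adds uridines to RNA ends.

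alphaTub84D, the minor broadly expressed alpha-tubulin gene (FBgn0003885, chr3R:7530753-7532732, plus strand), passed no filter. Its strongest entry in the conservative ranked list had a signal of 78.1 with the summit 7 bp upstream of the TSS, and an IDR of 0.0848. The optimal ranked list gave the same entry an IDR of 0.0123, close to the filter but outside it. The summit was at the same base in both replicates, with a signal of 19.6 in replicate 1 (IDR 0.0672) and 44.2 in replicate 2 (IDR 0.0546). In the conservative ranked list alphaTub84B thus stood at 192 and alphaTub84D at 78.1. A further entry lay 397 bp upstream in replicate 2, at 46.5 (IDR 0.0121), and 410 bp upstream in the conservative ranked list, at 38.8. The latter summit was 102 bp upstream of a start site of Rtnl2, a reticulon family gene on the opposite strand, so the entry is shared between these genes.

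betaTub56D, the main beta-tubulin gene (FBgn0284243, chr2R:19447319-19451600, minus strand), has 2 annotated start sites, and the conservative list held a peak at each. At the distal TSS the signal was 101, with the summit 80 bp downstream in the 5′ untranslated region (rank 4961, 16.7% of peaks lower, score 971). At the proximal TSS, inside the gene, it was 64.5, with the summit 27 bp upstream in an intron (rank 5581, 6.28% of peaks lower, score 869). Both were among the weaker peaks of the list, and 6.06% of genes with a conservative peak had a lower signal than betaTub56D. The proximal peak had an IDR of 0.00806 in the conservative ranked list and 0.0532 in the optimal one, so it was missing from the optimal list.

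The replicates differed at betaTub56D. In replicate 2 the distal peak passed the filter at 71.8, 66 bp downstream (rank 5167, 29.6% of peaks lower). In replicate 1 no entry passed, and the nearest ones were at 35.2, 154 bp upstream of the distal TSS (IDR 0.277), and at 35.4, 186 bp upstream of the proximal TSS (IDR 0.557). Replicate 2 also had an unfiltered entry 139 bp upstream of the distal TSS, at 18.2 (IDR 0.341). A stronger peak of 429 stood 921 bp upstream of the distal TSS, with 187 in replicate 1 and 250 in replicate 2. It lay at the start site of CG7744, which is transcribed away from betaTub56D and begins 904 bp from it.

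**Figure D2:**
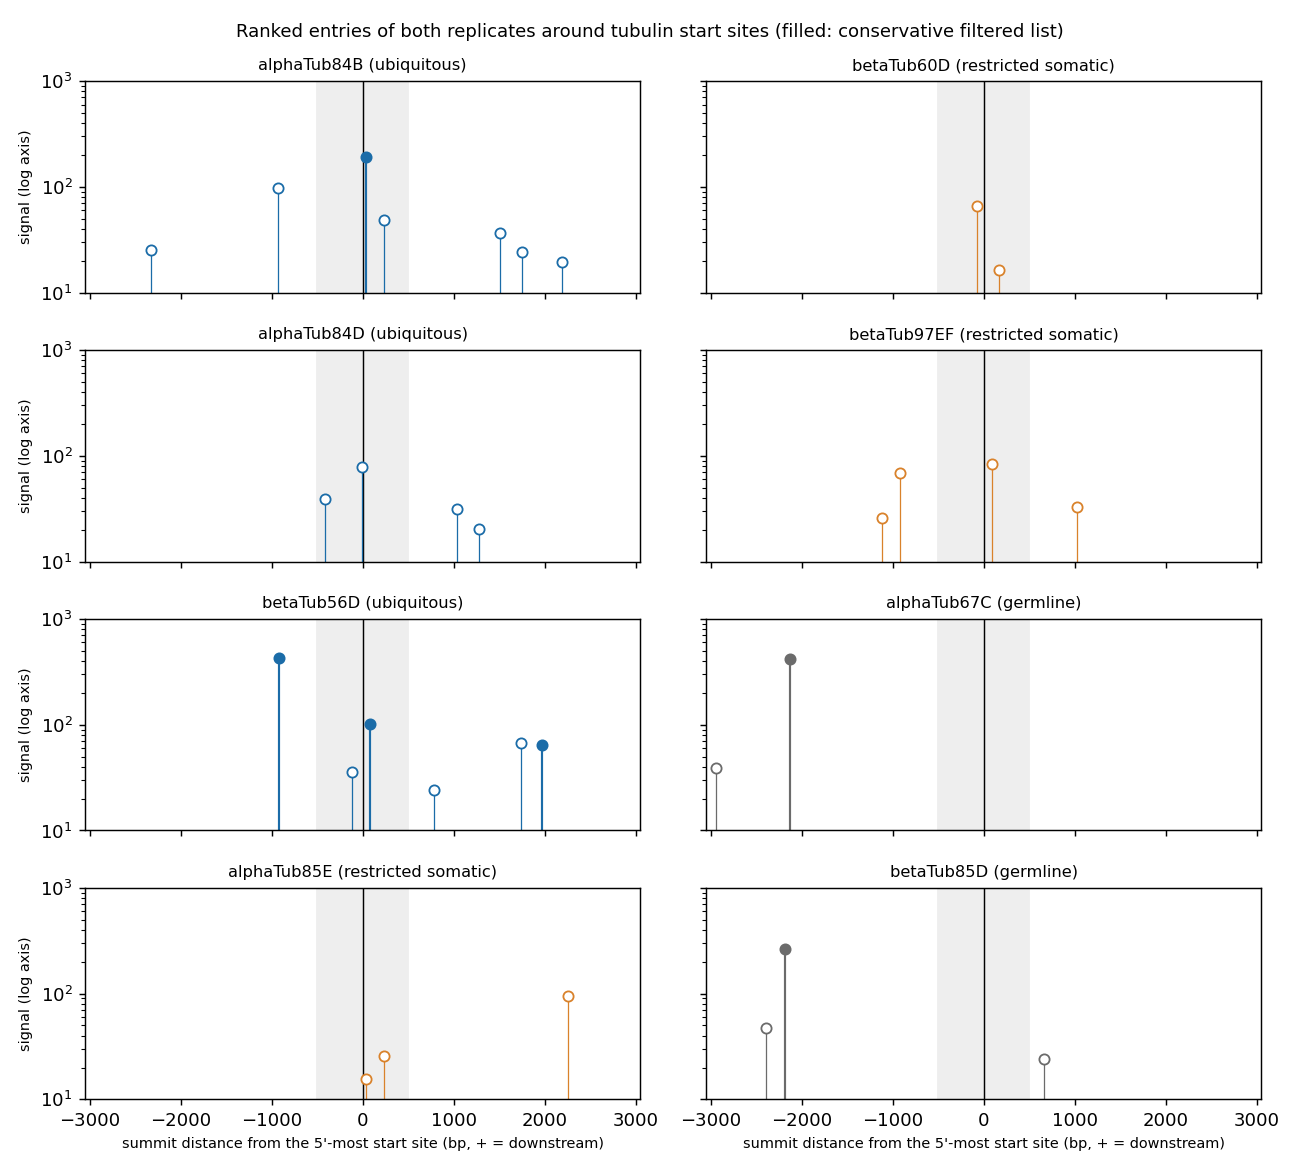
Summits of the conservative ranked list by distance from the 5′-most TSS of each tubulin gene (bp, positive downstream) against deposited signal (log axis). Filled points passed the conservative filter and the grey band is 500 bp either side of that TSS. At alphaTub84B the filled point is beside the TSS, while at alphaTub67C and betaTub85D the filled points lie 2127 and 2187 bp upstream. The filled point upstream of betaTub56D (429) is at CG7744, and the one furthest downstream (64.5) is at the proximal TSS.

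Among the paralogs of narrower somatic use, betaTub97EF (FBgn0003890, chr3R:27967008-27988384, minus strand) was the one with a filtered peak. Its signal was 23.5 in replicate 1 (IDR 0.743), 57.0 in replicate 2 (IDR 0.00235) and 82.9 in the conservative ranked list (IDR 0.0292). The replicate 2 entry alone passed a filter, at rank 6161 of 7340 with 16.1% of peaks lower. The summits lay 84, 99 and 95 bp downstream of the TSS, in the 5′ untranslated region.

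betaTub60D (FBgn0288686, chr2R:24305881-24313099, plus strand) had a signal of 29.3 in replicate 1 (IDR 0.346), 42.4 in replicate 2 (IDR 0.0153) and 66.0 in the conservative ranked list (IDR 0.0169). In replicate 1 it was above betaTub97EF, and in replicate 2 below it. All 3 values were outside the filter, and all 3 summits were upstream of the TSS, by 86, 33 and 70 bp. In the conservative list the nearest peak was 7418 bp away, just beyond the 3′ end of the gene, with a signal of 165 and no start site within 500 bp.

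alphaTub85E (FBgn0003886, chr3R:9731221-9733250, minus strand) was the weakest of the 6 genes with an entry. It had none in replicate 1, a signal of 14.0 in replicate 2 (163 bp downstream, IDR 0.695) and 26.0 in the conservative ranked list (234 bp downstream, IDR 0.661). A filtered peak of replicate 2 at 73.8 stood beyond the 3′ end of the gene, 2253 bp downstream of its TSS and just upstream of a start site of FoxP, a forkhead transcription factor gene.

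Neither germline gene had an entry within 500 bp, but each had a stronger peak further upstream, in both replicates. For alphaTub67C (FBgn0087040, chr3L:9681268-9683370, plus strand) it lay 2127 bp upstream, with a signal of 139 in replicate 1, 286 in replicate 2 and 419 in the conservative list. The summit was 38 bp upstream of fry, which encodes a large scaffold protein of cell shape and dendrite patterning, and 60 bp upstream of CG16717. For betaTub85D (FBgn0003889, chr3R:9408383-9410282, minus strand) the peak lay 2187 bp upstream, with signals of 91.8, 165 and 264 in the same order. It stood 79 bp upstream of alpha-Man-IIa, a gene for a Golgi mannosidase, and 176 bp upstream of the potassium channel gene Task7. Both peaks were stronger in each list than the alphaTub84B peak, and both lay at the promoters of other genes.

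The limit of 500 bp fell between weak entries. In the conservative ranked list the entry furthest inside it was that of alphaTub84D, 410 bp upstream with a signal of 38.8. The nearest entry outside it was that of betaTub85D, 660 bp downstream with a signal of 24.4. Neither passed the filter.

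By group, the filtered lists gave 2, 2, 1 and 2 of the 3 broadly expressed genes (conservative, optimal, replicate 1 and replicate 2). For the genes of narrower somatic use the counts were 0, 0, 0 and 1 of 3, and for the germline genes 0 of 2 in every list. The shares of all protein-coding genes in the same order were 39.8%, 43.7%, 30.3% and 44.9%. Before the filter all 3 broadly expressed genes had an entry in each of the 4 ranked lists, as did 58.0% to 66.1% of all genes. The genes of narrower somatic use gave 3, 3, 2 and 3 of 3 in the ranked lists in the same order, and the germline genes 0 of 2 in each. In the conservative ranked list the strongest signals ran in the order alphaTub84B (192), betaTub56D (101), betaTub97EF (82.9), alphaTub84D (78.1), betaTub60D (66.0) and alphaTub85E (26.0), so the groups overlapped: betaTub97EF lay above alphaTub84D. In replicate 2 the order was the same. In replicate 1 alphaTub84D (19.6) was the lowest of the 5 genes with an entry. With 2 or 3 genes in a group the difference between groups was not tested.

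**Figure D3:**
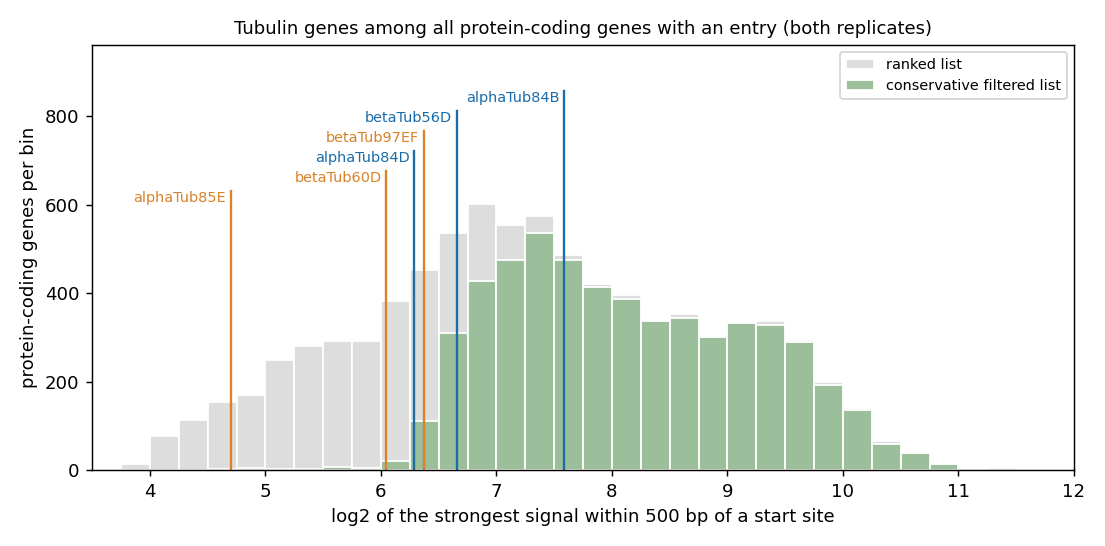
Protein-coding genes by the log2 of their strongest deposited signal within 500 bp of a TSS, in the conservative ranked list (grey) and the conservative filtered list (green). Lines mark the 6 tubulin genes with an entry. In the ranked list 57.7% of the 8472 genes with an entry were below alphaTub84B, and 3.81% were below alphaTub85E.

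Set among all genes with an entry in the conservative ranked list, whose quartiles were 79.3, 155 and 352, alphaTub84B was above the median and the other 5 tubulin genes were below it. The side changed between replicates for alphaTub84B, which was below the median of 58.4 in the replicate 1 ranked list (46.1% of genes lower) and above that of 94.4 in replicate 2 (66.3% lower). The share of genes with a lower signal was 57.7% for alphaTub84B, 33.2% for betaTub56D, 26.4% for betaTub97EF, 24.6% for alphaTub84D, 20.2% for betaTub60D and 3.81% for alphaTub85E.

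The signal was higher in replicate 2 than in replicate 1 at all 5 tubulin genes with an entry in both ranked lists, as it was at most genes. The log2 ratio of replicate 2 to replicate 1 was 1.47 at alphaTub84B, 1.28 at betaTub97EF, 1.24 at alphaTub84D, 1.02 at betaTub56D and 0.53 at betaTub60D. Over 7697 genes its median was 0.66, with quartiles of 0.33 and 1.07. The ratios at alphaTub84B, betaTub97EF and alphaTub84D were thus above the third quartile, with 89.8%, 84.0% and 82.6% of genes lower. The ratio at betaTub60D was below the median. For betaTub56D and alphaTub84D the strongest entries of the replicates lie at different positions.

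Summits stood on either side of the tubulin start sites. Filtered summits were downstream at alphaTub84B, at the distal TSS of betaTub56D and at betaTub97EF, and upstream at the proximal TSS of betaTub56D. Among entries that passed no filter, those nearest the TSS of alphaTub84D and betaTub60D were upstream in both replicates. Among all genes with a conservative peak the strongest summit was downstream in 19.3% of 5565, with a median position of 60 bp upstream. The share was 16.1% in replicate 1 and 21.5% in replicate 2. In the conservative list 2 tubulin genes had a strongest summit, alphaTub84B (31 bp) and betaTub56D (80 bp), both downstream. betaTub97EF passed the filter in replicate 2 alone, so the tubulin summits named above come from different lists. No difference from all genes was tested.

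The genes most like alphaTub84B in signal over the conservative, replicate 1 and replicate 2 filtered lists, of 4109 genes with a peak in all 3, were RpL22, sktl and Sirup. Their distances from it on the log2 scale were 0.04, 0.07 and 0.07. RpL22, a protein gene of the large ribosomal subunit, had signals of 187, 51.5 and 142. For sktl, a phosphoinositide kinase gene, they were 187, 50.8 and 139, and for Sirup, whose product works in mitochondria, 187, 51.6 and 138. The likeness rests on 3 values, and the conservative list covers the same 2 replicates, so they are not independent.

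The motifs searched from 250 bases before to 50 after each TSS, as exact matches on either strand, were these 8. ATCGAT is the core of the DNA replication-related element and TATCGATA a longer form that contains it. GGTCACACT is the core of the M1BP site, CAGCTG is an E-box and GAGAG is a site type of the GAGA factor. TATAAA is the TATA box, CATCNCT is a core promoter element and CAGGTAG is the site of the early embryonic factor Zelda. Of the 9 tubulin start sites 5 held TATAAA, against 42.2% of 19630 start sites of all protein-coding genes, and 4 held GAGAG, against 33.1%. The TATAAA match began 25 bases before the TSS at alphaTub84B and 26 at alphaTub85E and the distal TSS of betaTub56D. At betaTub97EF the matches began 97 and 95 bases before it, and at betaTub85D 227 bases before it. ATCGAT and TATCGATA were found at alphaTub67C alone, against 20.9% and 7.98% of all start sites. GGTCACACT was found at alphaTub84D alone (5.22% of all start sites) and CAGCTG at alphaTub85E alone (17.9%). CATCNCT (13.9%) and CAGGTAG (1.70%) had no match at any of the 9. At the start sites of the bound genes alphaTub84B and betaTub56D, 2 of the 8 motifs were present, GAGAG and TATAAA, and within 50 bp of their conservative summits 1 was, a GAGAG of alphaTub84B on the minus strand, 54 bases downstream of the TSS.

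Base composition of these windows varied widely among the paralogs. The GC content was 46.3% at alphaTub84B and 31.3% at alphaTub84D, against a median of 39.3% over all start sites (quartiles 34.0% and 45.7%). It was 57.3% at the proximal TSS of betaTub56D and 35.0% at the distal one. Because the paralogs are similar in coding sequence, uniqueness was checked with 36-base words. All 966 words within 500 bp of each of the 9 start sites occurred once in the genome, while in coding exons the unique share was 89.0% for alphaTub84B and 87.7% for alphaTub84D.

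Among other genes of the microtubule system a conservative peak stood at 29 of 52 (55.8%), beside 2 of 8 tubulin genes and the 39.8% of all genes. These shares were not tested against each other. In replicate 1 the count was 23 of 52 (44.2%), against 30.3% of all genes, and in replicate 2 it was 32 of 52 (61.5%), against 44.9%.

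Among the 4 remaining tubulin genes, gammaTub23C, gammaTub37C, betaTub65B and CG7794, 0 had a conservative peak, against 39.8% of all protein-coding genes. The somatic gamma-tubulin gene gammaTub23C, whose product seeds microtubules, had a peak of 63.8 in the optimal list. In the ring complex that holds gamma-tubulin 4 of 7 genes (57.1%) had a conservative peak. They were Grip75 at 290, Grip128 at 238, Grip91 at 169 and Grip71 at 163. Of the genes that fold and assemble tubulin dimers 4 of 6 had one (66.7%). There Arl2, a small GTPase that acts with the tubulin cofactors, reached 905 (320 in replicate 1 and 585 in replicate 2), and the cofactor genes Tbca, Tbcd and Tbce reached 272, 209 and 121.

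Genes for enzymes that modify tubulin were bound in 7 of 14 cases. TTLL4A, of the tubulin tyrosine ligase-like family, had 1201 (452 in replicate 1 and 736 in replicate 2), the acetyltransferase gene Atat 754, TTLL4B 720 and the deacetylase gene HDAC6 659. Growth, severing and stability factors were bound in 12 of 16 cases, led by the plus-end protein gene Eb1 at 736, the severing enzyme genes Kat60 at 721 and spas at 646, and the spindle pole protein gene asp at 620. The other bound genes of these lists lay on both sides of the alphaTub84B value of 192. Above it were Klp67A at 598, CLIP-190 at 383, Jupiter at 317, TTLL5 at 309, Patronin at 305 and Sirt2 at 268. Below it were chb at 164, tacc at 128, TTLL12 at 124, msps at 95.5 and mars at 87.0. Some of these conservative summits lay far from the TSS (bp, negative upstream): CLIP-190 at -492, Sirt2 at -468, spas at -430, TTLL12 at -377, msps at -371 and mars at 339. The other genes named from these lists had summits nearer the TSS, such as Eb1 at -19. The strongest summit of CLIP-190 in replicate 2 was at -8 (signal 106), and that of Sirt2 in replicate 1 at -1 (62.2). Whether the distant peaks belong to neighbouring genes was not tested. Of the neuronal and structural microtubule-associated proteins 2 of 5 (40.0%) were bound, near the 39.8% of all genes. They were the spectraplakin gene shot at 266 and Map60 at 219, while futsch, tau and Map205 had no conservative peak.

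**Figure D4:**
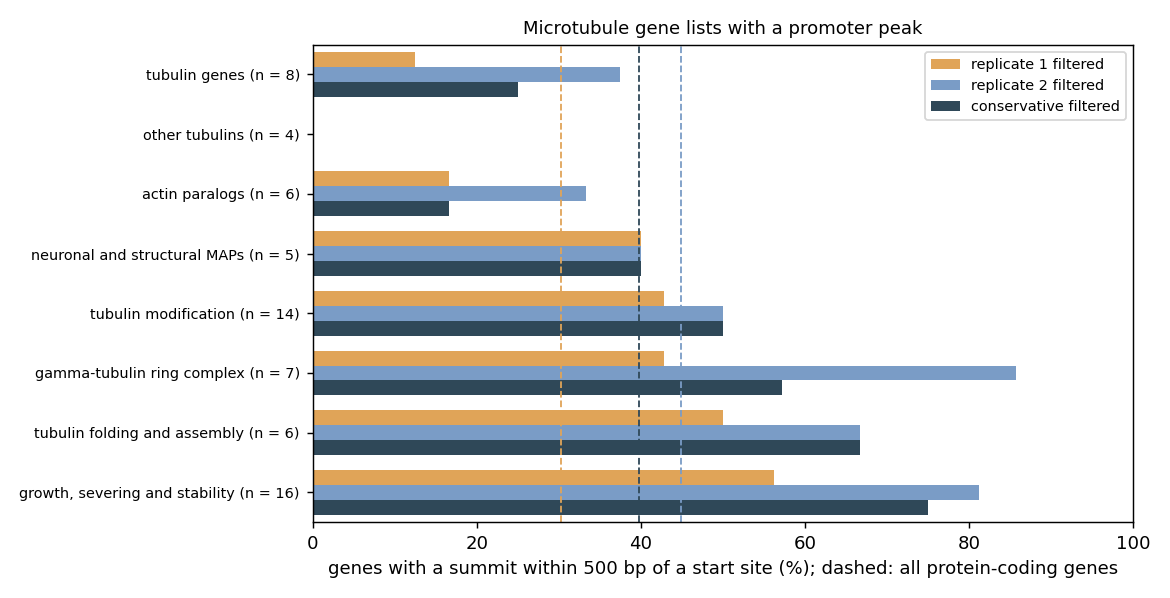
Share of genes with a filtered summit within 500 bp of a TSS (percent) for the tubulin genes, the microtubule lists and the actin genes, in replicate 1, replicate 2 and the conservative list. Dashed lines give the share of all protein-coding genes (30.3%, 44.9% and 39.8%). The bars of the tubulin genes, the other tubulins and the actin genes lie below the line of their list. The bars of the ring complex, folding, modification and growth lists lie above it (growth: 12 of 16 genes in the conservative list). Those of the neuronal and structural list lie above it in replicate 1 and the conservative list and below it in replicate 2.

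The actin genes, another family of broadly expressed and tissue-restricted cytoskeletal paralogs, gave 1 of 6 in the conservative list, against 39.8% of all genes. The bound one was the cytoplasmic actin gene Act42A, at 260 (124 in replicate 1 and 134 in replicate 2). With 6 genes the difference was not tested. The other cytoplasmic actin gene, Act5C, had a filtered peak in replicate 2 alone, at 62.2. The muscle actin genes Act57B, Act79B, Act87E and Act88F had none in either replicate.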

How the data were processed

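CG13287-eGFP ChIP-seq peak lists of 2 embryo replicates were used as deposited, in dm6 coordinates per the labels. The deposited signal is the authors' value per peak, and its scale is not given in the sources used here, nor are the aligner, the peak caller or the control. The deposited score is the scaled IDR, capped at 1000 per the values. The conservative and optimal lists cover both replicates, and 16 further columns of the 2 ranked lists of both replicates were not used.

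A summit is the peak start plus the deposited offset. A gene counts as bound when a summit lies within 500 bp of a TSS of the Ensembl BDGP 6.54 annotation, and its highest signal is used. Ranks are by signal within a list, on the chromosome arms. The members and gene lists were chosen with earlier results of these data known. Of 54 listed microtubule genes 52 matched the annotation, and 2 did not. In a list, up to 4 bound genes with the highest conservative signal are named, and the 3 genes nearest to the tubulin gene with the highest signal. Genes sharing a tubulin summit are named too. Other neighbours, further bound microtubule genes and the actin genes without a peak were named after their values were seen. Sequences are from the Release 6 genome. Assignment was tested on simulated data. Python 3.11.15, pandas 2.3.3 and numpy 2.4.6 were used. Alternatives were other lists, distances, overlap rules and start sites, and leaving out each replicate.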

Additional observations from a re-analysis of the deposited data

How the results depend on the processing

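The germline count of 0 held in all settings, as did the alphaTub84B peak. Leaving out replicate 2 gave 1 bound tubulin gene, against 30.3% of all protein-coding genes, and leaving out replicate 1 gave 3, against 44.9%. Of these, 1 to 2 were broadly expressed and 0 to 1 of narrower use. The signal without 1 replicate was 52.1 to 145 for alphaTub84B and 71.8 for betaTub56D, which had no value without replicate 2. Among peaks above the median signal 1 tubulin gene was bound, a broadly expressed one, against 26.5% of all genes. In the conservative ranked list 6 tubulin genes were bound, 3 of them of narrower use, against 60.7% of all genes. Within 1000 bp the betaTub56D value became 429, the peak at CG7744. Beside summits 1 motif was found in place of 2. The optimal list, 200 bp, interval overlap and the 5′ end alone left the tubulin counts at 2. The shares of all genes there were 43.7%, 35.0%, 41.3% and 37.8%. Other microtubule genes bound ranged from 21 to 39 around 29, and the share of all genes moved with the setting too. The count of 39 came from the conservative ranked list, where 60.7% of all genes were bound. The count of 21 came from peaks above the median signal, where 26.5% of all genes were bound, and from 200 bp. At 200 bp the share of these microtubule genes was 40.4% against 35.0% of all genes, which is nearer to the background than at 500 bp. No paired analysis was possible because there is only 1 group. The unknown depth limits every missing peak: no entry does not show that binding is absent.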
